A study of Homo sapiens with 8 samples.

Results

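Proximal chromosome 21 was taken here as every deposited γH2AX region on chromosome 21 whose midpoint lay from 9 Mb to below 17 Mb of the human build hg19. It held 2942 of the 54434 regions of the 3 deposited lists: 894 of 10090 untreated, 1068 of 26121 cisplatin and 980 of 18223 Pt-ttpy regions. The interval was chosen by the number of regions in these same lists, which were dense there, so that number is given as a description and supports nothing further. No region of any list lay below 9 Mb. The last region inside the interval ended at position 15457438 in the untreated list, 16808448 in the cisplatin list and 15457435 in the Pt-ttpy list, and the first region outside it began at 27341450, 17392683 and 24384169.

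The cells were A2780, an established human ovarian carcinoma line. Chromatin was immunoprecipitated for γH2AX, a phosphorylated form of a histone H2A variant that gathers around DNA breaks. The groups used were untreated cells, cells given cisplatin for 96 hours at the dose of 80% inhibition (IC80), and cells given Pt-ttpy for 96 hours at its own IC80. All came from the same line with no genetic change named in the labels, each group had 2 samples, and each pair of samples was tied to 1 list. There is thus no list for each replicate, no test between conditions was possible, and every difference below compares these lists only.

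Chromosome 21 is one of the acrocentric human chromosomes, whose short arms carry satellite repeats, arrays of ribosomal RNA genes and long duplicated stretches that closely resemble those of other acrocentric chromosomes. Build hg19 contains only a few stretches of the short arm, separated by unsequenced gaps, with the centromere gap after them. Cisplatin crosslinks DNA, mostly at neighbouring guanines, and Pt-ttpy is a platinum complex that binds G-quadruplexes, structures formed by guanine-rich DNA. As background, genes are few here: of 11 looked up in RefSeq's order for GRCh38.p14, BAGE2, a relative of a melanoma antigen gene, and TPTE, a testis phosphatase gene, come first, followed on the long arm by POTED, LIPI (a lipase), RBM11 (an RNA-binding protein), HSPA13 (a chaperone), SAMSN1 and NRIP1 (a nuclear receptor corepressor). No gene annotation or sequence of hg19 was used here, so regions were not assigned to genes and no sequence is shown.

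The members were very unevenly split between the arms. Below 12 Mb, on the short arm, lay 849 untreated, 990 cisplatin and 909 Pt-ttpy regions. On the long-arm side lay 45, 78 and 71. The short arm therefore accounted for 94.97% of untreated, 92.7% of cisplatin and 92.8% of Pt-ttpy members, on 1427 kb of assembled sequence against 2662 kb on the long-arm side. Per assembled Mb this was 595 untreated, 694 cisplatin and 637 Pt-ttpy regions on the short arm, and 16.9, 29.3 and 26.7 on the long-arm side. The longest stretch without a region in any list ran from 11188099 to 14338165, across the centromere gap.

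A large part of the short-arm sequence lay inside called regions, also without drug. Untreated regions covered 377.0 kb or 26.4% of it, cisplatin regions 640.7 kb or 44.9%, and Pt-ttpy regions 621.1 kb or 43.5%. On the long-arm side the regions covered 0.525%, 1.21% and 1.15% of the sequence. Of all sequence covered on chromosomes 1 to 22 and X, 12.9% (untreated), 8.45% (cisplatin) and 10.1% (Pt-ttpy) lay in the interval. Read depth was not used here, so these figures carry no depth behind them. The background of the folds differed between lists: neighbouring distinct folds lay a median of 0.301 (untreated), 0.173 (cisplatin) and 0.129 (Pt-ttpy) apart. How far such a difference bears on the covered sequence and the widths was not tested. Reads were 50 bases long, and how uniquely they map here was not analysed.

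Counting regions and counting covered bases gave different pictures of treated against untreated cells. On the short arm the treated lists had 1.17 (cisplatin) and 1.07 (Pt-ttpy) times as many regions as the untreated list, but 1.70 and 1.65 times as much covered sequence. With only regions of -log10 q of at least 5 the ratios of counts were 1.06 and 1.02 on the short arm. This limit falls at a different fold in each list. Regions with a fold of 3.81 (cisplatin) and 3.78 (Pt-ttpy) passed it, while an untreated region with 4.51 did not. Untreated pieces also carry the q of their whole peak number, so these ratios do not compare the lists at 1 level of enrichment. Long-arm ratios were 1.73 and 1.58 over all regions and 1.03 and 0.947 with that limit. The latter pool a dense block beside the centromere gap, described below, with the rest of that side. The block held 35 of the 38 strong untreated regions, 25 of 39 for cisplatin and 25 of 36 for Pt-ttpy. Outside it the treated lists had more strong regions than the untreated list as kept. On the long-arm side 16 untreated peak numbers are missing and up to 23 more may be, as described below. Their strength and their place inside or outside the block are unknown, so this difference cannot be told apart from them. Over chromosomes 1 to 22 and X the ratios of all regions were 2.64 and 1.83, and in the interval 1.19 and 1.10, but these cannot be set against each other because the untreated list lacks a larger share of its numbers elsewhere. The drugs were close to each other, with 1.09 cisplatin regions and 1.03 covered bases for each of Pt-ttpy. The untreated list was also cut differently: 105 of its 718 short-arm peak numbers were spread over 236 separate pieces, while no treated number was.

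The untreated list also lacks many of its own peak numbers, 8848 of 18049 over the whole list. In the interval the numbers of the kept regions show 249 missing numbers whose kept neighbours both lie in the interval, and up to 31 more at its edges, so at least 24.7% are missing here. The 758 kept numbers would then be between 1007 and 1038, beside 1068 cisplatin and 980 Pt-ttpy regions. No source used here says why they are missing. The regions they stood for cannot be placed more closely than between their neighbours.

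The assembled short arm consists of 6 pieces, numbered here from the end of the arm towards the centromere. Pieces 1 to 4 were dense in all 3 lists. Piece 1 (184 kb) held 147 untreated, 172 cisplatin and 177 Pt-ttpy regions, which covered 21.97%, 52.6% and 54.1% of it. Piece 2 (129.9 kb) held 100, 154 and 153 regions, covering 19.2%, 48.5% and 45.5%. In these outer pieces the treated lists had both more regions and between 2.37 and 2.53 times the covered sequence of the untreated list.

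Pieces 3 and 4 had the highest coverage of the interval in every list. Piece 3 (209 kb) held 217 untreated, 199 cisplatin and 184 Pt-ttpy regions, covering 39.9%, 65.5% and 63.7%. Piece 4 (131 kb) held 143, 123 and 114 regions, covering 42.7%, 69.6% and 68.0%. Here the untreated list had more regions than either treated list but less covered sequence, and its regions were shorter, with a median of 255 bp in piece 3 against 377 bp (cisplatin) and 406 bp (Pt-ttpy). The untreated counts include pieces of cut peaks: the list kept 181 peak numbers on piece 3 and 120 on piece 4, fewer than the cisplatin regions. Its higher count and shorter regions cannot be told apart from this cutting.

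Piece 5 stood apart from its neighbours. Its 282 kb held 6 untreated regions, beside 140 of cisplatin and 104 of Pt-ttpy. These covered 0.254%, 9.12% and 7.14% of the piece. The treated regions there were narrow and weak within their lists, with a median width of 147 bp and a median fold of 3.29 for cisplatin and 162 bp and 3.26 for Pt-ttpy, and a highest fold of 5.71 and 5.72. A -log10 q of at least 5 was reached by 24 of the 140 cisplatin regions (17.1%) and 16 of the 104 Pt-ttpy regions (15.4%). By the position of their neighbours, 38 missing untreated numbers fall on this piece and up to 17 more at its edges, which would raise the untreated 6 to between 44 and 61. The missing share, 86.4% of the numbers that can be placed there, compares with 11.7% to 27.7% on the other 5 pieces. How much of the treated excess on piece 5 belongs to the missing untreated numbers cannot be told apart from an effect of the drugs.

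Piece 6 (490.2 kb), next to the centromere gap, held dense blocks at both ends and a quiet stretch between them. It had 236 untreated, 202 cisplatin and 177 Pt-ttpy regions, covering 34.9%, 46.2% and 44.8%. From 10.7 to 10.8 Mb the regions covered 54.5, 65.8 and 64.7 kb. From 10.9 to 11 Mb the untreated list had 0 regions, cisplatin 6 and Pt-ttpy 2, covering at most 0.823 kb. From 11 to 11.1 Mb coverage was back at 57.9, 76.1 and 73.3 kb. The quiet stretch was thus common to all 3 lists, and on this piece the treated lists covered 1.32 (cisplatin) and 1.28 (Pt-ttpy) times as much as the untreated list.

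**Figure D1:**
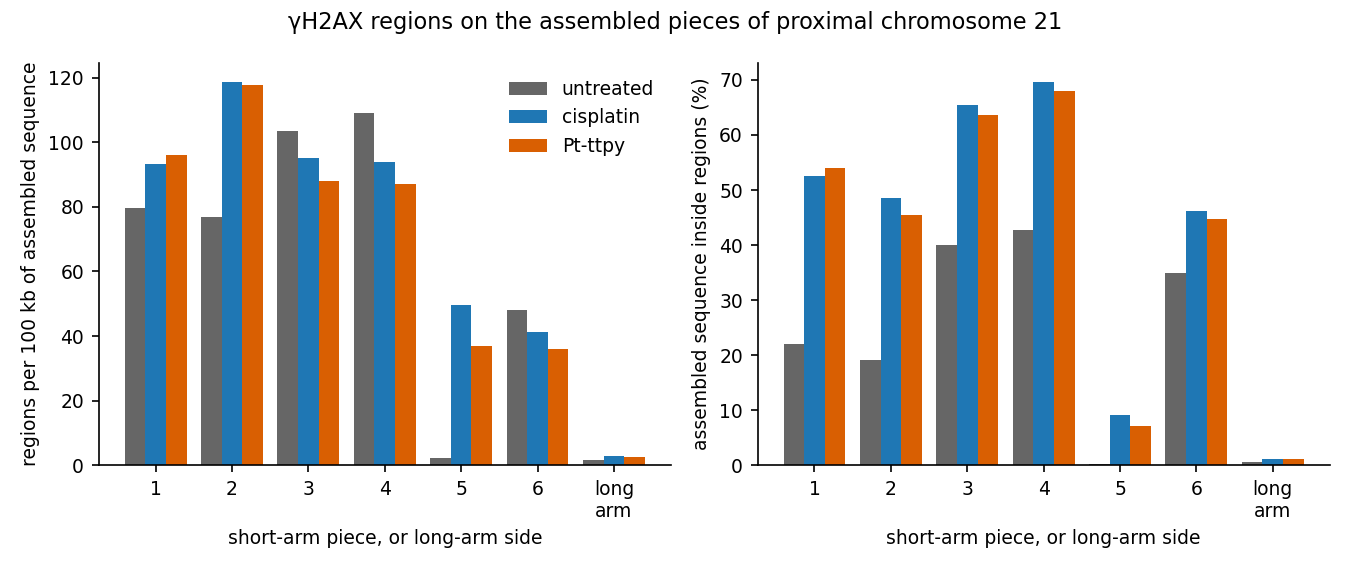
Regions per 100 kb (left) and percent of the assembled sequence inside regions (right), for the 6 short-arm pieces and the long-arm side. Bars are single lists, with no list for each replicate. Piece 5 has 2.13 untreated against 49.7 cisplatin and 36.9 Pt-ttpy regions per 100 kb, while coverage on pieces 3 and 4 is at least 39.9% in every list. On piece 5, 86.4% of the untreated peak numbers that can be placed are missing.

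In bins of 100 kb the densest places were partly the same. The 3 fullest short-arm bins of the untreated list were 10.1 to 10.2 Mb with 110 regions, 9.9 to 10 Mb with 100, and 11.1 to 11.2 Mb with 89. In the cisplatin list they were 9.9 to 10 Mb with 105, 9.5 to 9.6 Mb with 96, and, tied at 93, 9.7 to 9.8 and 10.1 to 10.2 Mb. In the Pt-ttpy list they were 9.9 to 10 Mb with 104, 9.5 to 9.6 Mb with 97 and 9.7 to 9.8 Mb with 92. The bin from 9.9 to 10 Mb was among the first 3 of each list, while that from 9.5 to 9.6 Mb held 59 untreated regions and was not.

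Along the short arm the treated lists followed each other closely. In 140 bins of 10 kb the covered bases of cisplatin and Pt-ttpy had a Pearson r of 0.992 and a Spearman rho of 0.986. For untreated with cisplatin these were 0.927 and 0.961, and for untreated with Pt-ttpy 0.927 and 0.960. The bins are neighbours on 1 chromosome arm and the lists may share a control, so the coefficients only describe these lists. The cisplatin list covered more than the untreated list in 130 bins and the Pt-ttpy list in 127. In 28 bins cisplatin regions and in 25 bins Pt-ttpy regions were called where the untreated list had none, and every bin with untreated regions had regions of both drugs. Most of the bins without untreated calls lay on piece 5, where 86.4% of the untreated numbers that can be placed are missing. A drug effect in such bins cannot be told apart from missing untreated numbers.

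**Figure D2:**
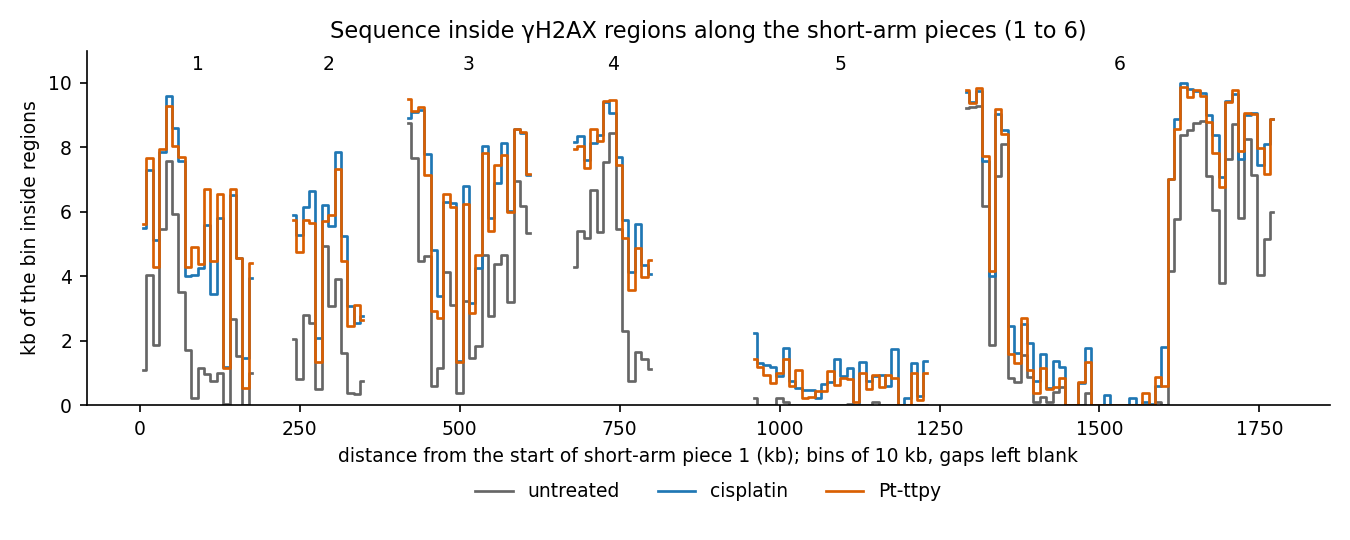
Kilobases inside regions in bins of 10 kb along short-arm pieces 1 to 6, by distance from the start of piece 1, 1 line per list. The lines rise and fall together, the cisplatin line lies above the untreated one in 130 of 140 bins, and piece 5 and the middle of piece 6 stay below 3 kb per bin in every list.

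The strongest short-arm regions lay at the start of piece 3 and inside piece 2. The fold is the peak caller's enrichment over 1 background value for the whole list, so folds are given as places within a list and not compared between lists. In the untreated list 1 peak number with a fold of 58.0, where the list's median was 5.71, was spread over 6 pieces from 9825430 to 9834286. All 6 pieces carry that same fold, with a single summit at 9827158. The 3 named untreated regions of highest -log10 q, at chr21:9830123-9832658, chr21:9832766-9834286 and chr21:9826678-9827901, are pieces of it.

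At the same place the treated lists gave each region its own fold. The cisplatin list had 5 regions there: chr21:9825433-9826506 with a fold of 27.7, chr21:9826680-9828459 with 32.5, and then 6.75, 4.67 and 7.44 up to 9834305. Its strongest region had its summit at 9827119. The Pt-ttpy list had chr21:9825433-9829722 with a fold of 25.5 and a summit at 9827050, followed by regions with folds of 7.92 and 5.85. The highest treated folds thus fell on the first part of the stretch, and the untreated fold cannot be read as belonging to each of its 6 pieces. From general knowledge of hg19, not checked here against an annotation, the start of this stretch holds spacer sequence of the ribosomal RNA genes.

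In piece 2 a pair of strong regions was called with nearly the same borders in every list. The first was chr21:9695782-9696552 in the untreated list with a fold of 49.3, chr21:9695760-9696555 in the cisplatin list with 32.2, and chr21:9695768-9696556 in the Pt-ttpy list with 25.6. The second was chr21:9698138-9701049 (fold 48.4), chr21:9698133-9701107 (32.5) and chr21:9698139-9701130 (25.6). Each lay within the top 1% of its list by -log10 q in the treated lists, at ranks of 99.7% in both. Their borders differed by less than 100 bp between lists.

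The widest short-arm regions all lay on piece 6. The single widest spanned chr21:10708847-10726829 (17983 bp) without drug, chr21:10708758-10727058 (18301 bp) after cisplatin and chr21:10708778-10727456 (18679 bp) after Pt-ttpy. Its folds, 17.7, 19.0 and 15.0, placed it at ranks of 94.1%, 98.7% and 97.9% of its list by -log10 q. The untreated list had next chr21:11116920-11123215 (6296 bp, fold 23.5) and, at the outer edge of the piece, chr21:10697973-10703808 (5836 bp, fold 42.4). The treated lists matched each of these with 1 region, of 7283 and 5921 bp (cisplatin) and of 7311 and 6012 bp (Pt-ttpy).

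The next widest treated regions were cut into many untreated pieces. The cisplatin region chr21:11036626-11052454 (15829 bp, fold 8.31) lay on 13 untreated regions with 12933 bp in all and on 4 Pt-ttpy regions with 15437 bp. The cisplatin region chr21:11062850-11074619 (11770 bp) lay on 8 untreated and 2 Pt-ttpy regions. The Pt-ttpy regions chr21:11052615-11062716 (10102 bp) and chr21:11064907-11074558 (9652 bp) lay on 4 and 6 untreated regions. At such blocks a higher count of untreated regions went with less covered sequence. Regions of at least 5 kb numbered 4 (untreated), 11 (cisplatin) and 13 (Pt-ttpy) on piece 6 and 0 on pieces 1 to 5.

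The pooled median width was greater on the short arm than in the lists as a whole, though not on every piece. Their median there was 228 bp without drug (95% interval of the median 208 to 246), 274 bp with cisplatin (249 to 305) and 298 bp with Pt-ttpy (279 to 316). Over chromosomes 1 to 22 and X the medians were 164, 169 and 185 bp. Untreated regions were below this on pieces 1, 2 and 5, with medians of 161, 155.5 and 104.5 bp, and treated regions on piece 5, with 147 and 161.5 bp. The order of the lists also depended on how regions were cut: merged within 1 kb, the short-arm medians were 779 bp (untreated), 830.0 bp (cisplatin) and 781 bp (Pt-ttpy), and over the whole interval the order turned, at 752, 671 and 572 bp. On the long-arm side they were 166 bp (137 to 256), 154.5 bp (140 to 191) and 180.0 bp (145 to 245), with intervals that include the medians of the whole lists. These intervals use the order of the widths only and treat regions as independent, which neighbouring regions are not.

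Wide regions carried a large part of the covered sequence. On the short arm 9.31% (untreated), 16.5% (cisplatin) and 15.5% (Pt-ttpy) of the regions were at least 1 kb wide, and these held 44.5%, 61.8% and 60.1% of the covered bases. At the narrow end, 99 untreated short-arm regions were under 100 bp, down to 4 bp, whereas the narrowest treated region was 101 bp. Widths under the fragment length of 200 to 700 bp are widths of calls and do not measure how far the histone mark spreads.

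**Figure D3:**
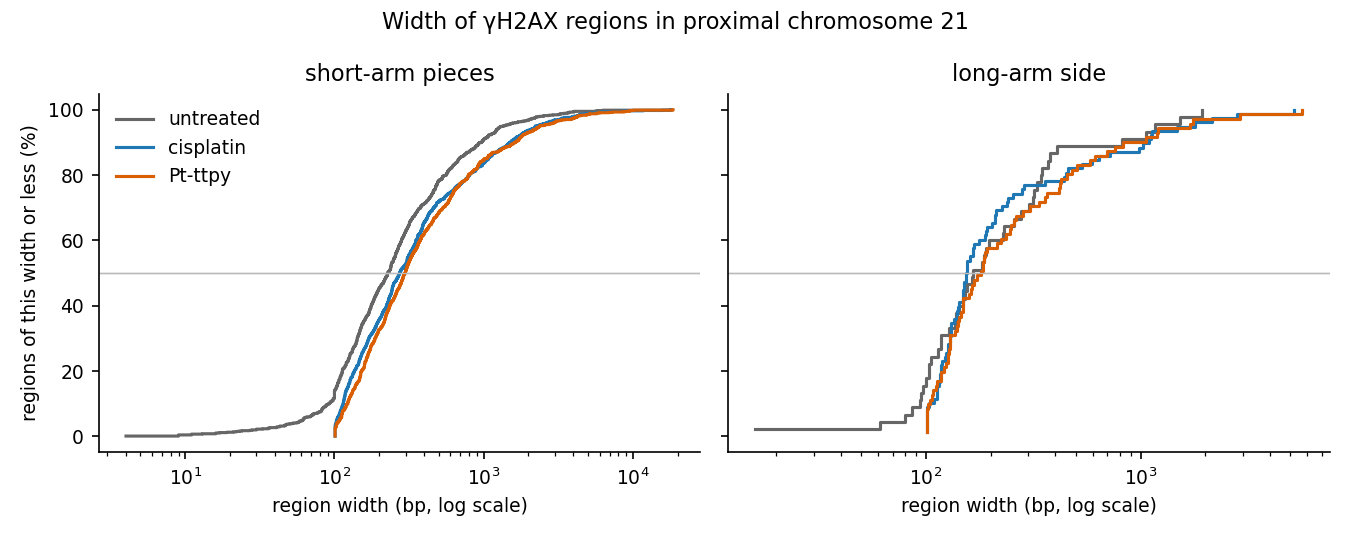
Cumulative share of regions by width in bp (log scale), for the short-arm pieces (left) and the long-arm side (right), 1 line per list; the grey line marks 50%. For regions as deposited the short-arm medians are 228, 274 and 298 bp; this order does not hold once regions are merged within 1 kb.

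Nearly all members kept in the untreated list were called again after either drug. The missing untreated numbers, at least 24.7% in the interval, do not enter the shares that follow. Of the 894 untreated regions 870 (97.3%, Wilson 95% interval 96.0% to 98.2%) shared at least 1 bp with a cisplatin region and 869 (97.2%, 95.9% to 98.1%) with a Pt-ttpy region. Over the whole lists these shares were 96.1% and 95.1%, so the members were near the background in this direction. Both drugs overlapped 851 untreated regions, cisplatin alone 19, Pt-ttpy alone 18 and neither 6. The 3 strongest of those 6 were chr21:11177431-11177460 (30 bp, fold 6.62), chr21:10522751-10522797 (47 bp, fold 5.11) and chr21:11166492-11166615 (124 bp, fold 4.51), at ranks of 62.96%, 36.9% and 22.2% of their list by -log10 q.

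In the other direction the shares, for regions as deposited, were higher than in the lists as a whole. Of the cisplatin members 523 of 1068 (49.0%, 46.0% to 52.0%) overlapped an untreated region, against 27.3% for the whole list. Of the Pt-ttpy members 529 of 980 (53.98%, 50.8% to 57.1%) did, against 39.5%. The untreated list lacks a larger share of its peak numbers elsewhere, so for overlap with untreated regions the interval and the whole lists are not alike. Cisplatin members overlapped Pt-ttpy regions in 816 cases (76.4%, against 47.8% in the whole list) and Pt-ttpy members overlapped cisplatin regions in 822 (83.9%, against 69.9%). The intervals cover counting only, the regions are clustered, and no test of these differences was made. Whether the untreated samples also served as the control of the treated lists is unknown. A dense interval also gives more chance overlap than a sparse one, and its part in these shares was not tested.

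Over all regions the treated shares were lower on the long-arm side, but this did not hold for strong regions on untreated ones. On the short arm 50.1% (cisplatin) and 54.9% (Pt-ttpy) lay on an untreated region, and on the long-arm side 34.6% (25.01% to 45.7%) and 42.3% (31.5% to 53.8%). For the drugs on each other the shares were 77.8% (cisplatin on Pt-ttpy) and 85.1% (Pt-ttpy on cisplatin) on the short arm and 59.0% and 67.6% on the long-arm side. Among regions of -log10 q of at least 5 the order turned for overlap with untreated regions, at 53.7% (short) and 61.5% (long) for cisplatin and 58.1% and 69.4% for Pt-ttpy. With equal numbers of top regions from each list these were 75.9% and 74.3%, and 75.3% and 80%. Counted in bases, 98.2% of the untreated sequence lay inside cisplatin regions and 98.5% inside Pt-ttpy regions over the whole interval. In return untreated regions took up 57.1% of the sequence called with cisplatin and 59.1% of that called with Pt-ttpy.

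**Figure D4:**
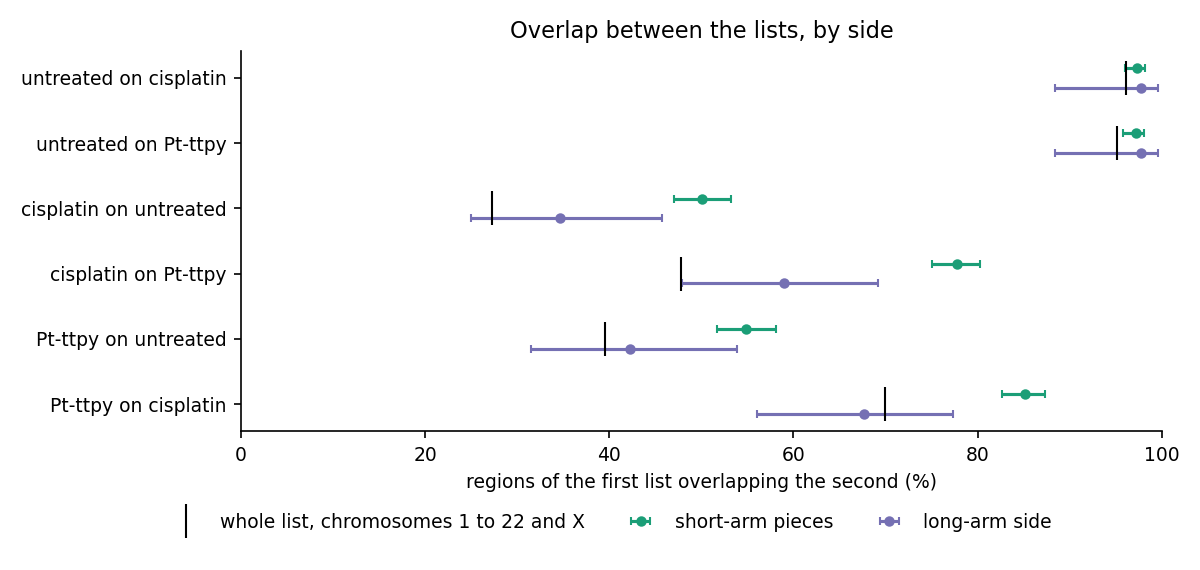
Percent of the regions of the first list that share at least 1 bp with the second list, for the short-arm pieces and the long-arm side, with Wilson 95% intervals that cover counting only; black ticks mark the same share over the whole lists. Short-arm shares of treated regions lie to the right of the ticks, at 50.1% against 27.3% for cisplatin on untreated. The untreated list lacks a larger share of its peak numbers outside the interval, which bears on the ticks for treated on untreated regions.

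By piece, the overlap of treated with untreated regions was lowest on piece 5. There 4 of 140 (2.86%, cisplatin) and 2 of 104 (1.92%, Pt-ttpy) lay on an untreated region. Only 6 untreated regions were kept on piece 5, and 86.4% of the untreated numbers that can be placed there are missing. Low overlap there thus cannot be told apart from the missing numbers. On the other short-arm pieces the share ran from 46.1% (piece 2) to 69.1% (piece 4) for cisplatin and from 47.7% (piece 2) to 72.8% (piece 3) for Pt-ttpy. The drugs also had fewer places in common on piece 5, where 35% (cisplatin) and 44.2% (Pt-ttpy) overlapped the other drug. On the other pieces these shares were at least 76.7% and 86.9%.

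Regions of the treated lists off the untreated list were narrower and weaker within their list. On the short arm 494 cisplatin regions lay off it, with a median width of 167 bp and a median fold of 3.64, against 586 bp and 6.06 for the 496 on it. For Pt-ttpy the 410 regions off it had medians of 176 bp and 3.65, against 581 bp and 5.72 for the 499 on it. Those found with both drugs were 285 regions of each list, and 209 cisplatin and 125 Pt-ttpy regions overlapped neither other list. The last had the lowest median folds, 3.46 for cisplatin and 3.39 for Pt-ttpy. A -log10 q of at least 5 was reached by 24.9% of these cisplatin and 21.6% of these Pt-ttpy regions. Over the whole lists 27.3% of cisplatin and 39.5% of Pt-ttpy regions lay on an untreated region. Shares on neither other list were not computed there. The untreated list lacks at least 24.5% of its short-arm numbers, and 86.4% of those placed on piece 5. How many regions lay off it for that reason cannot be told.

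The strongest treated regions off the untreated list were modest and each lay on a region of the other drug. For cisplatin on the short arm they were chr21:9961943-9962319 with a fold of 6.40, and chr21:9959314-9959683 and chr21:9660919-9661139, both with 6.23. For Pt-ttpy they were chr21:10165440-10165737 with 6.37, chr21:9771660-9772012 with 6.11 and chr21:9486242-9486891 with 5.98. None of these 6 lay on piece 5.

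When overlapping regions of all lists were joined into loci, the short arm gave 1018 loci. Of these 420 (41.3%) held regions of all 3 lists, and they made up 81.0% of the joined sequence. A further 238 loci held both drugs without untreated regions, 209 held cisplatin alone, 125 Pt-ttpy alone, 11 untreated with cisplatin, 9 untreated with Pt-ttpy and 6 untreated alone. The loci of a single drug, though many, held 4.89% (cisplatin) and 2.85% (Pt-ttpy) of the sequence. On the long-arm side 21 of 95 loci held all 3 lists, with 67.3% of the sequence. Loci were not formed over the whole lists, so no background share stands beside these counts. The missing untreated numbers bear on every class without untreated regions.

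Loci with exactly 1 region of each list allowed their borders to be compared. On the short arm there were 210, which leaves out the 176 loci with 2 or more untreated regions. Regions there had median widths of 155 bp (untreated), 351.5 bp (cisplatin) and 339 bp (Pt-ttpy), and the cisplatin region was wider than the untreated one in 199 of them and the Pt-ttpy region in 203. The starts of cisplatin and Pt-ttpy regions lay a median of 21 bp apart and the ends 21 bp, against 49.5 and 48 bp for untreated and cisplatin. The summits of both drugs lay a median of 20.5 bp apart and within 50 bp in 146 of the 210. Between the drugs neither was regularly wider, with the Pt-ttpy region wider in 105 loci. Because the untreated list was cut differently, its narrower regions cannot be told apart from an effect of the drugs on width.

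On the long-arm side the regions began at the edge of the centromere gap with 1 dense block. The first untreated region began 0.279 kb beyond the gap, the first cisplatin region 0.042 kb and the first Pt-ttpy region 0.036 kb. The block ran from 14338409 to 14369367 with 41 regions in the untreated list, from 14338172 to 14369404 with 27 in the cisplatin list, and from 14338166 to 14369408 with 28 in the Pt-ttpy list. Its far end thus fell within 100 bp in all lists. Regions covered 43.7%, 78.4% and 75% of the block, beside 42.7%, 69.6% and 68.0% on short-arm piece 4. Of the long-arm regions, 91.1% (untreated), 34.6% (cisplatin) and 39.4% (Pt-ttpy) were in the block.

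The strongest and widest long-arm regions were in that block, with 1 exception. At its start the untreated list had pieces at chr21:14338736-14338821 and chr21:14338966-14339313, both of 1 peak number with a fold of 24.7. The cisplatin region there was chr21:14338172-14339967 (1796 bp, fold 19.9) and the Pt-ttpy region chr21:14338166-14339925 (1760 bp, fold 17.4). At its far end lay chr21:14366578-14368508 (1931 bp, fold 21.95) without drug, chr21:14366582-14369404 (2823 bp, fold 17.7) after cisplatin and chr21:14366504-14369408 (2905 bp, fold 16.3) after Pt-ttpy. The widest treated calls were chr21:14359299-14364490 (5192 bp, fold 11.4) for cisplatin and chr21:14357361-14363043 (5683 bp, fold 8.30) for Pt-ttpy, where the untreated list had shorter regions such as chr21:14361470-14362995 (1526 bp, fold 6.92) and chr21:14359205-14360367 (1163 bp, fold 6.01). The third widest was chr21:14340667-14342819 (2153 bp, fold 6.06) for cisplatin.

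The exception was a single narrow region far from the gap. It lay at chr21:15457287-15457438 (152 bp) without drug, chr21:15457292-15457439 (148 bp) after cisplatin and chr21:15457293-15457435 (143 bp) after Pt-ttpy, about 1119 kb beyond the gap. Its fold of 36.7 was the highest of the long-arm side in the untreated list, and in the treated lists it had folds of 18.5 and 15.4. By -log10 q it stood at ranks of 97.7%, 98.7% and 98.0% of its list. Few regions lay near it, the closest being chr21:15454715-15454817 in the untreated list (fold 6.31), with matches of 7.62 (cisplatin) and 4.81 (Pt-ttpy). Another place called in all lists was chr21:15310746-15310862 in the untreated list (fold 8.42), matched by folds of 8.65 and 6.62.

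Just beyond the block, regions were called in treated cells and not kept in the untreated list. From 14373485 to 14454953 there were 34 cisplatin and 20 Pt-ttpy regions and 0 untreated ones, with a highest fold of 4.69. Of the missing untreated numbers, 16 fall on the long-arm side by their neighbours and up to 23 more may, and they cannot be placed more closely. The 3 strongest long-arm regions off the untreated list were chr21:15299719-15299861 (fold 5.54), chr21:14528415-14528530 (5.37) and chr21:14351454-14351680 (5.02) for cisplatin. For Pt-ttpy they were chr21:14528397-14528545 (6.24), chr21:15299718-15299847 (5.85) and chr21:14413271-14413418 (4.69). The first 2 of each drug were thus the same places.

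Farther out the regions thinned quickly. The fullest 100 kb bin of the long-arm side was 14.3 to 14.4 Mb throughout, holding 41 (untreated), 37 (cisplatin) and 34 (Pt-ttpy), and the next in the treated lists was 14.4 to 14.5 Mb with 24 and 14. The third was 15.3 to 15.4 Mb with 4 cisplatin and 7 Pt-ttpy regions. In the untreated list the second was 15.4 to 15.5 Mb with 2 regions, and 15 to 15.1 and 15.3 to 15.4 Mb had 1 each. From 15457440 to 16808347 no list had a region, and beyond it the cisplatin list had 1 region, chr21:16808348-16808448, with a fold of 2.94.

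**Figure D5:**
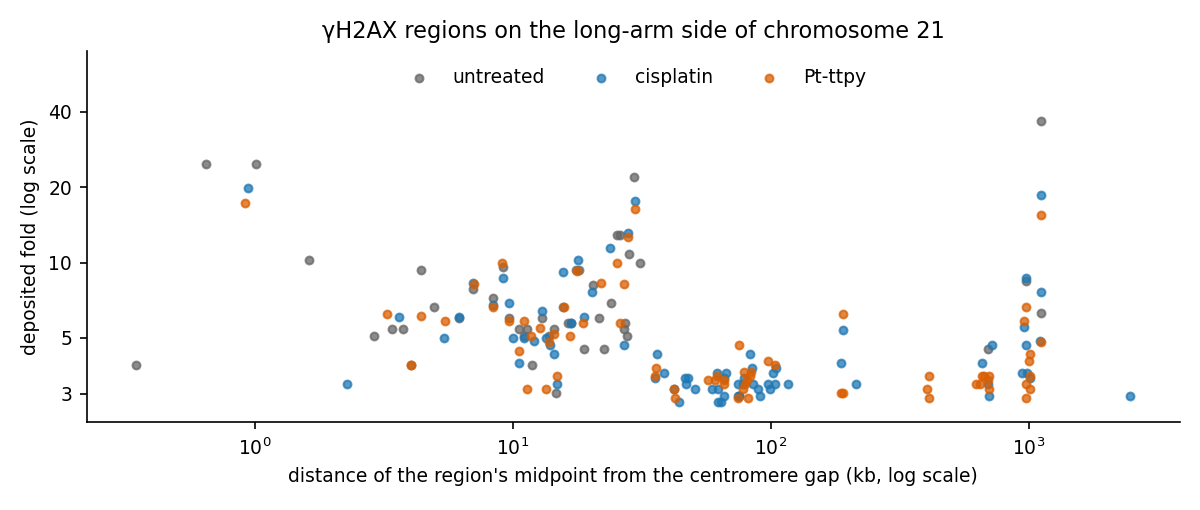
Deposited fold (log scale) of every long-arm region against the distance of its midpoint from the centromere gap in kb (log scale), 1 colour per list; folds have a different background in each list. Regions within 35 kb of the gap reach folds of 24.7, 19.9 and 17.4, the treated regions that follow stay at or below 4.69 in the adjoining cluster, and 1 region near 1119 kb stands high in all lists.

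The pooled share of strong regions was higher on the short arm than in the whole list after treatment, though not on piece 5, where it was 17.1% (cisplatin) and 15.4% (Pt-ttpy). A -log10 q of at least 5 was reached by 69.0% of short-arm cisplatin regions (66.0% to 71.8%) and 72.2% of short-arm Pt-ttpy regions (69.2% to 74.98%), against 46.9% and 57.6% of the whole lists. On the long-arm side it was reached by 50.0% (39.2% to 60.8%) and 50.7% (39.3% to 62.0%), intervals that include the whole-list shares. These long-arm values mix the block beside the gap, with 92.6% and 89.3%, and lower shares beyond it. For untreated regions the shares were 75.9% (72.9% to 78.6%) on the short arm and 84.4% (71.2% to 92.3%) on the long-arm side, against 73.9% for the whole list. The untreated values count each piece of a peak number with the q of the whole number.

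The other acrocentric long arms differed widely in how many regions lay beside their gap. Within 3 Mb of it, chromosome 21 had 15 regions per Mb without drug, 26 with cisplatin and 23.7 with Pt-ttpy. Chromosome 15 had 225, 350.0 and 300.3, chromosome 14 had 28.3, 40.7 and 34.7, chromosome 22 had 15.3, 42.3 and 37.7, and chromosome 13 had 2.67, 13 and 9. Within 3 Mb only chromosome 13 had fewer than chromosome 21 in each list. Within 1 Mb chromosome 22 also had fewer, with 20, 62 and 54 against 43, 73 and 65. On chromosomes 14, 15 and 21 the first region of each list began within 1 kb of the gap, and on chromosome 14, as on 21, nearly all untreated regions lay in the first Mb (85 of 85 and 43 of 45).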

How the data were processed

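The data were 3 peak lists of γH2AX chromatin immunoprecipitation from A2780 cells, each tied by the labels to the 2 samples of its group. Input samples were not used here. Per the submitters' processing notes, BWA 0.7.5, MACS2 2.1.0 and hg19 were used; calling settings, the control and how replicates were treated were not stated there. The labels' names of the treated lists also carry the tag of the untreated group; its meaning is not given. For each region the values deposited by the authors include the fold enrichment (a ratio), the -log10 q-value and the summit offset, which were used, and a score, which was not. Each list had as many distinct folds (181, 186 and 183) as pairs of fold and q. Depth is unknown.

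Starts are given 1-based. Gaps of hg19 were entered from general knowledge: 0 regions lay inside one and 1 region of each list reached into one, by at most 8 bp. Overlap was at least 1 bp. Shares carry Wilson 95% intervals and medians binomial intervals of the order statistics, for counting only. The members, lists and rules were chosen with earlier results of these data known. Regions named were, per side and list, the 3 of highest -log10 q (ties by width), the 3 widest, the 3 of highest -log10 q off the untreated list, the strongest untreated regions on neither treated list, and the 3 fullest 100 kb bins. Others named were chosen after their values were seen: regions matched to these in other lists, the regions at 15310746 and 15454715, the cluster beyond the long-arm block and the last cisplatin region. Alternatives were regions of -log10 q of at least 5, merging within 1 kb, joining pieces of a peak number, a width of at least 100 bp, equal numbers of top regions and other overlap rules. Code was tested on simulated regions. Genes are named as background only. Software was pandas 2.3.3, numpy 2.4.6, matplotlib 3.10.9 and scipy 1.17.1 under Python 3.11.15.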

Additional observations from a re-analysis of the deposited data

How the results depend on the processing

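No paired analysis was possible because each list stands for both samples of its group. With 1 list per condition and no depth, values describe these lists only.

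Values follow in the order untreated, cisplatin, Pt-ttpy. Merging regions within 1 kb left 165, 211 and 189 regions in the interval, and 2.00, 12.7 and 9.67 per Mb within 3 Mb of the long-arm gap. It moved the short-arm share to 96.4%, 82.0% and 84.7%, the median width to 752, 671 and 572 bp, and the share with -log10 q of at least 5 after treatment to 51.7% and 57.1%. Treated regions on untreated ones became 36.5% and 41.8%, cisplatin on Pt-ttpy 65.9% and Pt-ttpy on cisplatin 77.2%. With -log10 q of at least 5 the median width was 279.5, 388.5 and 418 bp, the treated short-arm shares 94.6% and 94.8%, and the densities at the gap 12.7, 13 and 12 per Mb, against 15, 26 and 23.7 over all regions. Treated regions on untreated ones were then 54.2% and 58.7%, cisplatin on Pt-ttpy 83.9% and Pt-ttpy on cisplatin 88.3%. A -log10 q of at least 10 was reached by 39.3%, 37.4% and 40.2%.

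Joining pieces of a peak number gave an untreated median of 248 bp and a share of strong untreated regions of 72.96%. A minimum width of 100 bp gave 256 bp and 81.3%, untreated overlaps of 98.7% (cisplatin) and 98.4% (Pt-ttpy), and treated overlaps on untreated of 44.9% and 49.2%. Adding missing untreated numbers gave a lowest short-arm share of 92.3%. Within 1 Mb of the gap the densities were 43.0, 73.0 and 65.0 per Mb.

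With the same number of top regions from each list the interval held 628 cisplatin regions. Overlaps were then 92.3% (untreated on cisplatin), 94.4% (untreated on Pt-ttpy), 75.8% (cisplatin on untreated), 75.6% (Pt-ttpy on untreated), 88.7% (cisplatin on Pt-ttpy) and 86.1% (Pt-ttpy on cisplatin). With 50% of the region covered, the last 4 in this order were 31.4%, 35%, 69.3% and 75.9%. Within 1 kb all 6 were 99.9%, 100%, 72.5%, 78.5%, 92.9% and 96.8%. Counted in bases, an alternative chosen after seeing the data, the last 5 were 98.5%, 57.1%, 59.1%, 84.9% and 87.7%. The other 55 values of these results stayed within their interval or, for counts, within 1.5 times, and the cause of the changes was not tested.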

Other observations

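Beyond 17 Mb the rest of chromosome 21 held 6 untreated, 41 cisplatin and 18 Pt-ttpy regions, against 894, 1068 and 980 before it. The strongest region there was the same place in all 3 lists: chr21:41346494-41346736 with a fold of 9.62 in the untreated, chr21:41346475-41346741 with 7.96 in the cisplatin and chr21:41346485-41346752 with 7.92 in the Pt-ttpy list. With cisplatin, 8 of the 41 shared bases with the Pt-ttpy list and 3 with the untreated list. With Pt-ttpy, 8 of the 18 shared bases with the cisplatin list and 4 with the untreated list. Beyond 47 Mb, towards the end of the long arm, lay 1 untreated, 6 cisplatin and 3 Pt-ttpy regions.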
